A study of Mus musculus with 6 samples.

Results

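The glycolytic enzymes described here are 10 genes of the route that carries glucose to pyruvate and lactate: Hk1, Gpi1, Pfkp, Aldoa, Aldoc, Tpi1, Gapdh, Pgk1, Pkm and Ldhb. A probe set, the group of short probes that reads one transcript on the chip, was counted when 1 of these symbols was its only annotated gene and it was not a control. This gave 23 of the 45101 probe sets on the chip, for 8 of the 10 genes and of 18193 symbols with a probe set of their own. Hk1 had 2 probe sets, Pfkp 3, Aldoa 5, Aldoc 2, Tpi1 3, Pgk1 3, Pkm 1 and Ldhb 4. No probe set carried the symbol Gpi1, and Gapdh stood alone only on control probe sets, which are given separately. Another 4 probe sets carried Gapdh or Hk1 together with further symbols and were not counted.

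RNA came from hippocampi of male Tg2576 mice on a C57BL/6 background (C57BL/6J in the study's methods), a line in which a prion protein promoter drives the Swedish mutant of human amyloid precursor protein. The groups were 18 month-old mice that for 6 months had drunk water with captopril, which blocks the angiotensin-converting enzyme, at a daily dose of 20 mg per kg (Tg-18mo-ACEI), 18 month-old mice on plain water with a high plaque load (Tg-18mo), and untreated 12 month-old mice with a low plaque load, the age at which captopril was begun (Tg-12mo). Every mouse carried the transgene, and a group without it is not analysed here. Each group had 2 Affymetrix MG430 2.0 chips, each with pooled RNA of 4 mice, so that p-values reflect only how far chips of a group lay apart, which may be technical.

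Glycolysis turns glucose into pyruvate and gains ATP and NADH on the way. Neurons and glia both run it, and in the brain astrocytes are known for a high glycolytic rate and for releasing lactate that other cells can take up. Hexokinase and phosphofructokinase catalyse steps that are practically irreversible and regulated, whereas aldolase, triosephosphate isomerase, glyceraldehyde-3-phosphate dehydrogenase and phosphoglycerate kinase work close to equilibrium. Many genes of the pathway are textbook targets of hypoxia-inducible factor, whose binding sites often hold the letters ACGTG.

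To show the sequence upstream of genes at different points of the route, at the first step (Hk1), the middle steps (Tpi1 and Pgk1) and the last step (Ldhb), the 250 bases before the annotated start are printed, from RefSeq (GRCm38.p6), 5′ to 3′ on the gene's strand. Capitals mark ACGTG, a form of the core of a hypoxia response element, and GGGCGG, a GC box, on either strand. The windows lie at chr10:62340422-62340671 (minus strand, 1 of 2 listed Hk1 starts), chrX:106186850-106187099 (plus strand, Pgk1), chr6:124814159-124814408 (minus strand, Tpi1) and chr6:142507958-142508207 (minus strand, Ldhb).
Hk1: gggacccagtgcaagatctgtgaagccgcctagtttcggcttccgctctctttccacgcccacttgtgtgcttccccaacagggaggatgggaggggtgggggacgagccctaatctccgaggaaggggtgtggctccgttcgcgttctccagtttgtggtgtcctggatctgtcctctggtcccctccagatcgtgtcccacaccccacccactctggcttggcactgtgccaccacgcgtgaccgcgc
Pgk1: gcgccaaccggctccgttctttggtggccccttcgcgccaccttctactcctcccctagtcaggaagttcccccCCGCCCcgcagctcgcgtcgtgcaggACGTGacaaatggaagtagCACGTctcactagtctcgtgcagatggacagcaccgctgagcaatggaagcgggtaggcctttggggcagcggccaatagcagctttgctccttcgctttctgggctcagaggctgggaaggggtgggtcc
Tpi1: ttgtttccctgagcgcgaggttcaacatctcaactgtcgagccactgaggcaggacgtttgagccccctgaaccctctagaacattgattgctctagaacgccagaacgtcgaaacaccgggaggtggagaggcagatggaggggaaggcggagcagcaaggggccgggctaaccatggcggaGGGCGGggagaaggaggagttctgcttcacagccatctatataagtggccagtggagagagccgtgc
Ldhb: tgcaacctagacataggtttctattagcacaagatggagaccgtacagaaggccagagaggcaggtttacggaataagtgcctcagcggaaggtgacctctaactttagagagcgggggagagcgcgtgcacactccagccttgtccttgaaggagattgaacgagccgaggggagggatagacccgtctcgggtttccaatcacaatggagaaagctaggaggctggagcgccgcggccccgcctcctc

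The Pgk1 window held 2 copies of ACGTG and 1 GC box, the Tpi1 window 1 GC box, and the windows of Hk1 and Ldhb neither. Over the 15 windows that RefSeq lists for the 10 genes, ACGTG was found in 4, against 16.6% of all 32851 windows of this length. By gene, 3 of the 10 held it, Aldoa, Pgk1 and Pkm, against 18.5% of all genes. GGGCGG was found in 8 of the 15, against 32.7% of all windows, and for 7 of the 10 genes, against 35.4% of all genes. In these window counts 2 Aldoa windows overlap and share 1 ACGTG and 2 GC boxes. The full E-box CACGTG, which contains ACGTG, was in 0 of the 15 and in 6.02% of all windows. Other forms of the core of a hypoxia response element were not searched, so a window without ACGTG may still hold such a core. These matches describe the letters in the windows only.

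Values are signal intensities on a linear scale, scaled on every chip to a target of 600. Of the 23 glycolytic probe sets, 22 reached an average signal of 100 in some group and were tested, among 23262 that met this limit. The exception was Pfkp probe set 1437759_at, with 80.3 and 72.5 in Tg-18mo-ACEI, 41.8 and 37.8 in Tg-18mo and 65.6 and 8.92 in Tg-12mo. All 6 chips entered the same limma fit on log2 signals, and a probe set was called at an adjusted p under 0.05 (Benjamini-Hochberg). Differences are log2 differences with the standard error (SE), and n is 2 chips a group throughout. A suffix _x_at marks probe sets in which some probes can also match other transcripts, which holds for 10 of the 22.

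The deposited scale itself differed between the ages, and this touches every bright probe set. The mean signal of a chip was 796 to 806 in Tg-18mo-ACEI and 805 to 817 in Tg-18mo, against 897 and 902 in Tg-12mo, and the highest signal was 21934 to 25102 at 18 months against 39494 and 40190 at 12 months. In probe sets that averaged 12800 or more, the median difference of Tg-18mo from Tg-12mo was -0.58, and in those under 1600 the class medians were 0.06 to 0.11. Quantile normalization, which gives all chips the same distribution of signals, brought these class medians to between -0.01 and 0.02. Of the 22 glycolytic probe sets, 15 averaged 8000 or more, a limit set after the values were seen, so each comparison with 12 month-old mice is given on both scales. The 18S ribosomal RNA control (3′ end) read 2214 and 1999.95 in Tg-18mo-ACEI, 10219 and 11144 in Tg-18mo, and 2125 and 2121 in Tg-12mo, and its part in the results was not tested.

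The comparison of Tg-18mo-ACEI with Tg-18mo asks what captopril did in mice of the same age. Both Hk1 probe sets, the dimmer Pfkp probe set 1430634_a_at and the Pgk1 probe set 1438640_x_at were lower in captopril-treated mice, the Pgk1 probe set 1439435_x_at was higher, and the other 17 did not pass the test. Of the 22 probe sets, 4 were called lower, where 17.7% of all probe sets tested were, and 1 was called higher, where 15.9% were. The share of glycolytic probe sets called lower, 18.2%, was thus near that of all probe sets. Among the 15 bright ones, 1 was lower, against 16.2% of all probe sets as bright. After quantile normalization 5 were lower (18.2% of all) and 2 higher (16.3% of all). The median over the brightest probe set of each of the 8 genes was -0.14, against -0.04 over all probe sets tested. Among those that averaged at least 8000, it was -0.14 over 6 genes, against -0.06 over all probe sets as bright.

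Hexokinase 1 is the brain's main hexokinase and traps glucose in the cell by phosphorylating it. Its brighter probe set, 1437974_a_at, had signals of 7179 and 7269 in Tg-18mo-ACEI, 8519 and 8696 in Tg-18mo and 7747 and 7517 in Tg-12mo. No group overlapped another, and the untreated 18 month-old mice were highest. With captopril the difference was -0.25 (SE 0.04, adjusted p = 0.0030), or 1.19-fold lower. The dimmer probe set, 1420901_a_at, read 2748 and 2693 in Tg-18mo-ACEI, 3396 and 3687 in Tg-18mo and 1825 and 1832 in Tg-12mo. It was again highest in untreated 18 month-old mice, with captopril-treated mice in the middle and 12 month-old mice lowest. Its difference with captopril was -0.38 (SE 0.05, adjusted p = 0.0013). Both calls for Hk1 held after quantile normalization, with -0.23 and -0.40.

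Pfkp encodes the platelet type of phosphofructokinase, which commits sugar to glycolysis and is abundant in brain. Probe set 1430634_a_at had 445 and 465 in Tg-18mo-ACEI, 675 and 717 in Tg-18mo and 520.4 and 586 in Tg-12mo. Captopril-treated mice were below both other groups, with a difference from Tg-18mo of -0.61 (SE 0.09, adjusted p = 0.0016), or 1.53-fold lower. The brighter probe set, 1416069_at, differed less, at 4845 and 4902 in Tg-18mo-ACEI, 5354 and 5257 in Tg-18mo and 5162 and 5192 in Tg-12mo. Here the difference was -0.12 (SE 0.04, 95% interval -0.22 to -0.02), which missed the threshold as deposited (adjusted p = 0.057) and passed it after quantile normalization (adjusted p = 0.044).

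**Figure D1:**
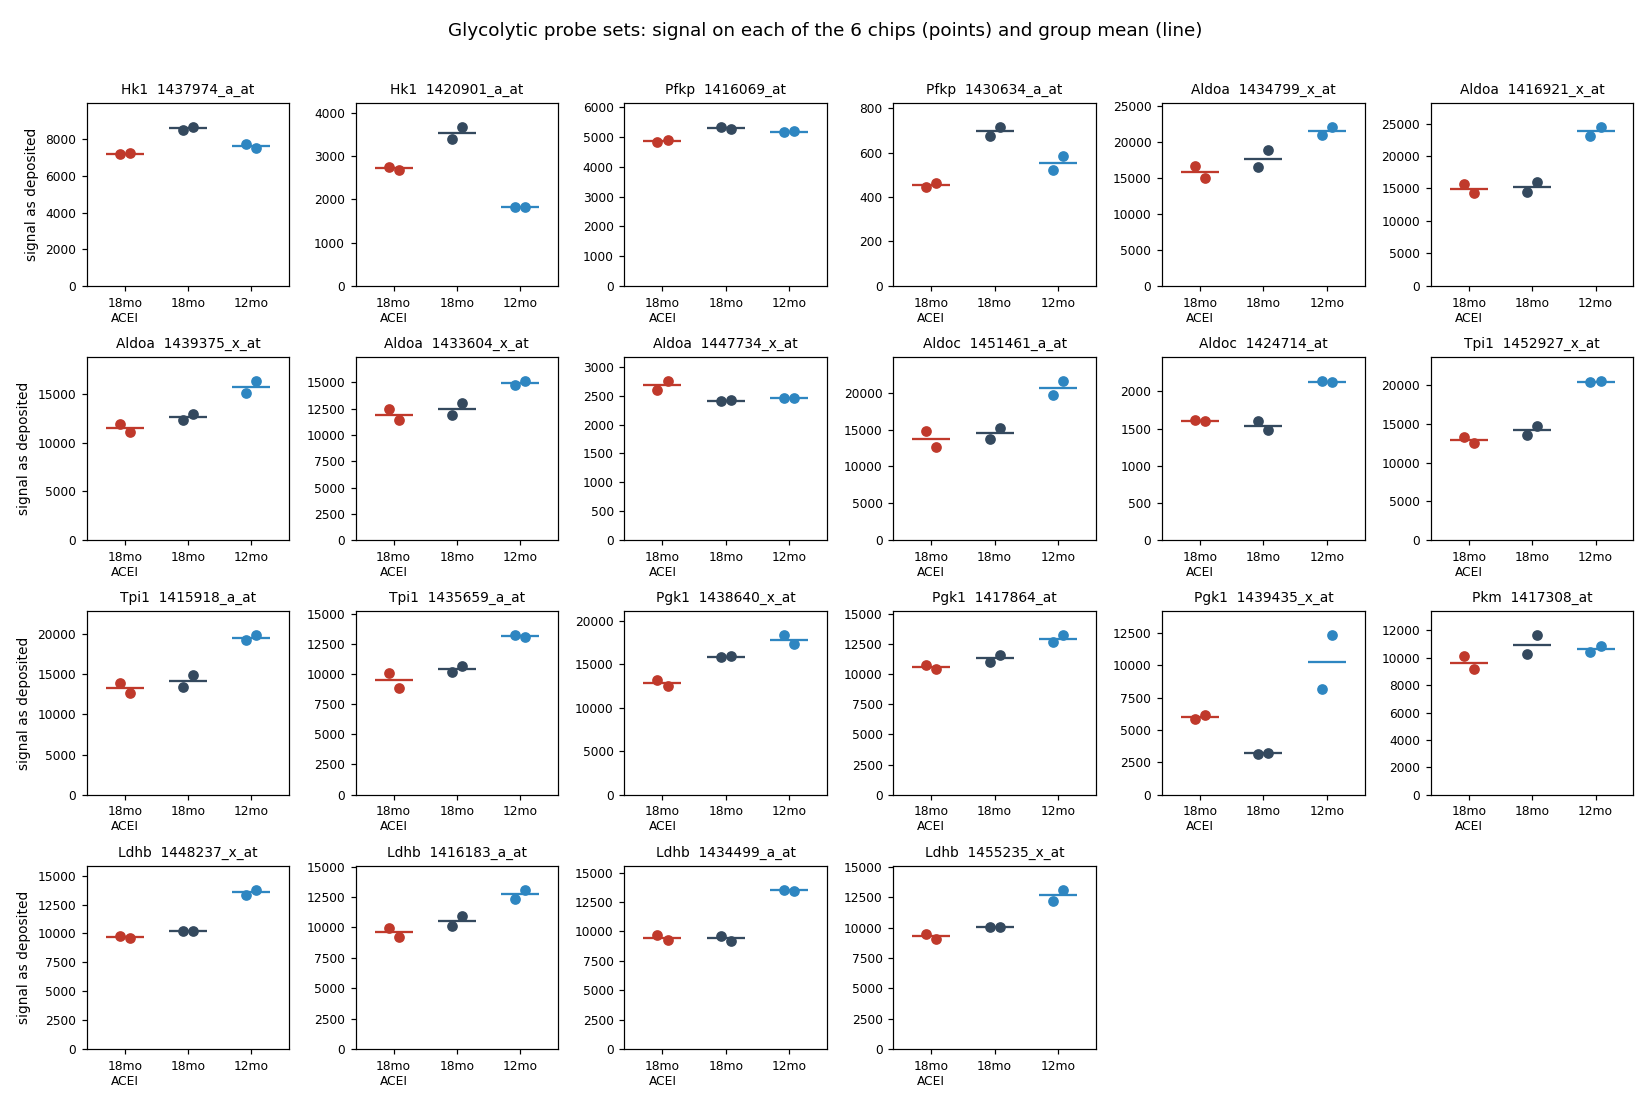
Signal of the 22 glycolytic probe sets on each chip (points, linear scale from 0) with the group mean (line), with Tg-18mo-ACEI at the left of each panel, Tg-18mo in the middle and Tg-12mo at the right. Hk1 is highest in Tg-18mo (8519 and 8696 for 1437974_a_at), most bright probe sets are highest in Tg-12mo, and Pgk1 1439435_x_at is lowest in Tg-18mo (3175 and 3236).

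Aldolases split fructose bisphosphate into triose phosphates. Aldoa encodes the form shared by muscle and neurons, and Aldoc the form that marks astrocytes in the forebrain. None of the 7 probe sets for the aldolases passed the test with captopril as deposited, and their differences ran between -0.16 and 0.15. The brightest Aldoa probe set, 1434799_x_at, read 16650.2 and 14992 in Tg-18mo-ACEI, which overlapped 16506 and 18803 in Tg-18mo, while Tg-12mo had 20904 and 22107. The dimmest, 1447734_x_at, went the other way, with 2601 and 2754 in Tg-18mo-ACEI above 2409 and 2422 in Tg-18mo and 2454 and 2454 in Tg-12mo. That difference of 0.15 (SE 0.05) had an adjusted p of 0.052 as deposited and 0.047 after quantile normalization. The bright Aldoc probe set 1451461_a_at had 14828 and 12576 in Tg-18mo-ACEI against 13773 and 15198 in Tg-18mo, a difference of -0.08 with a 95% interval of -0.28 to 0.11. Both groups overlapped there.

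Triosephosphate isomerase (Tpi1) interconverts the products of aldolase. Its 3 probe sets differed by -0.14 to -0.09 with captopril, and none passed the test. For 1452927_x_at the signals were 13293 and 12490.4 in Tg-18mo-ACEI against 13584 and 14682 in Tg-18mo, without overlap, with an adjusted p of 0.093. Over all glycolytic probe sets, captopril-treated and untreated chips did not overlap in 13 that were lower and 2 that were higher, against 40.3% and 31.1% of all probe sets tested.

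Phosphoglycerate kinase 1 (Pgk1) makes ATP from bisphosphoglycerate, and its 3 probe sets disagreed. Probe set 1438640_x_at read 13211 and 12533 in Tg-18mo-ACEI, 15832 and 15950.2 in Tg-18mo and 18359.5 and 17370 in Tg-12mo. It was lower with captopril by a difference of -0.30 (SE 0.05, adjusted p = 0.0022). Probe set 1439435_x_at read 5826 and 6173 in Tg-18mo-ACEI, 3175 and 3236 in Tg-18mo and 8180 and 12312 in Tg-12mo. This was the only glycolytic probe set called higher with captopril as deposited, at 0.90 (SE 0.15, adjusted p = 0.0027), or 1.87-fold. The third, 1417864_at, had 10763 and 10401 in Tg-18mo-ACEI against 11027 and 11614 in Tg-18mo, a difference of -0.10 with a 95% interval of -0.21 to 0.01. Since 1438640_x_at and 1439435_x_at moved in opposite directions and both carry the _x_at suffix, no single direction can be given for the Pgk1 transcript.

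None of the 5 probe sets of the last steps passed the test with captopril. Pkm, which encodes pyruvate kinase of muscle and brain, read 10119 and 9188 on its probe set 1417308_at in Tg-18mo-ACEI against 10249 and 11646 in Tg-18mo. The groups did not overlap, and the difference of -0.18 (95% interval -0.34 to -0.02) had an adjusted p of 0.083. Ldhb encodes the lactate dehydrogenase subunit that is prominent in neurons and heart. Its 4 probe sets differed by -0.13 to 0.01 with captopril, and none passed the test. For 1448237_x_at, the signals were 9744 and 9591 in Tg-18mo-ACEI against 10209.9 and 10200.2 in Tg-18mo.

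Apart from the aldolase probe set 1447734_x_at and the Pfkp probe set 1416069_at, each of the 22 calls with captopril was the same on both scales. The plot of differences shows this as black and orange symbols close together in its left panel.

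**Figure D2:**
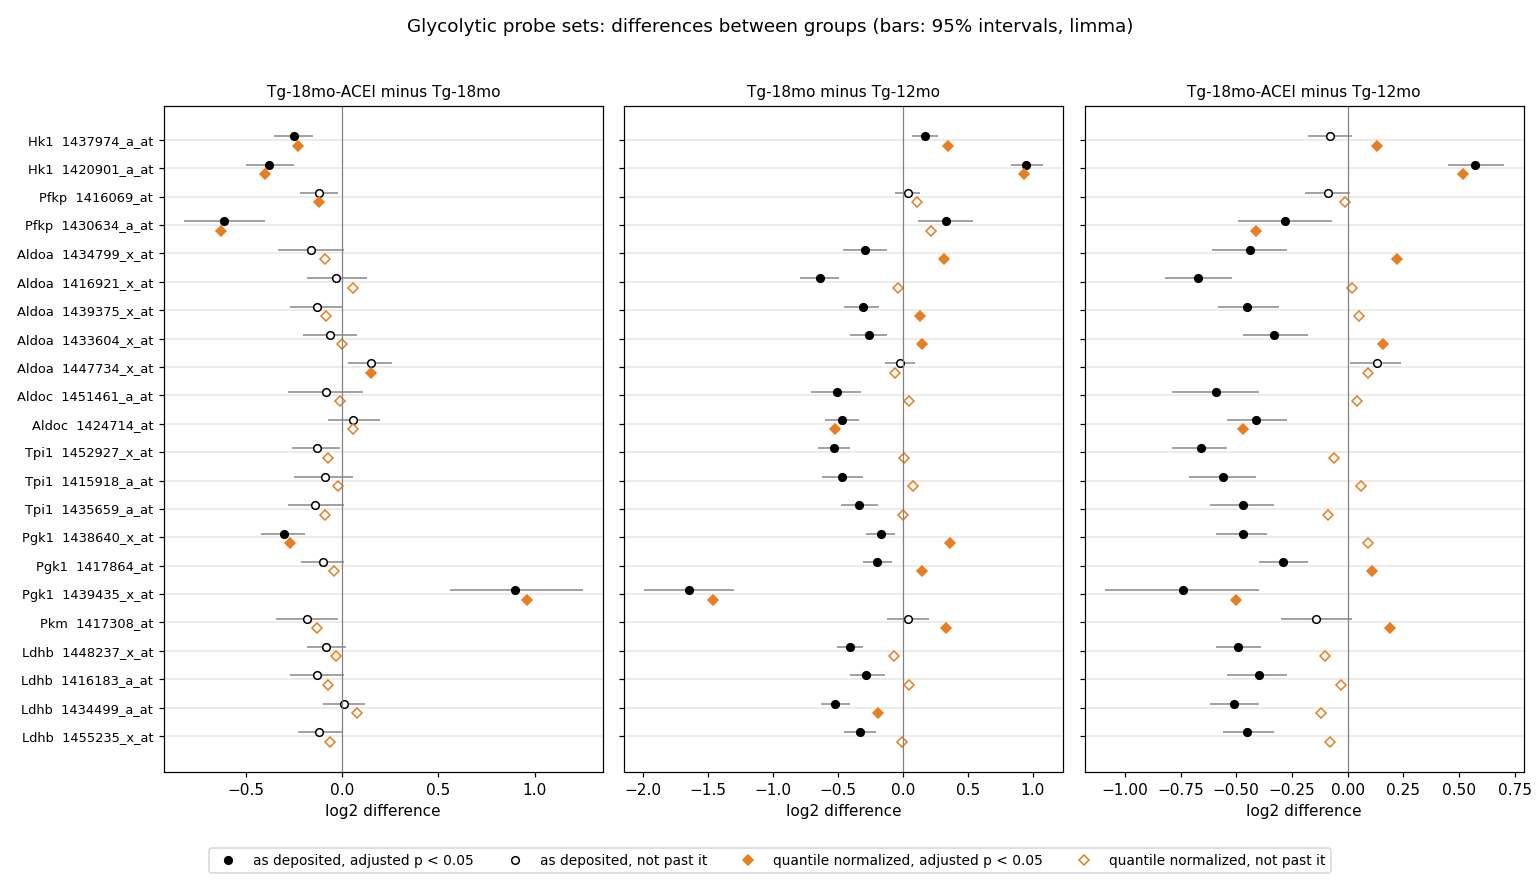
Log2 differences of the 22 glycolytic probe sets for Tg-18mo-ACEI minus Tg-18mo (left), Tg-18mo minus Tg-12mo (middle) and Tg-18mo-ACEI minus Tg-12mo (right), as deposited (black circles, bars for 95% intervals from limma) and after quantile normalization (orange diamonds), filled where the adjusted p was under 0.05. Each panel has its own axis range. Hk1 1420901_a_at (0.95) and Pgk1 1439435_x_at (-1.65) mark the ends of the middle panel, where most other black circles lie left of their orange diamonds.

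The comparison of Tg-18mo with Tg-12mo follows the ages between which plaques build up. Hk1 was higher in the older mice on both scales. The bright probe sets of Aldoa, Aldoc, Tpi1, Pgk1 and Ldhb were lower as deposited, and most of these calls were lost or turned round after quantile normalization. As deposited, 16 of the 22 were called lower, against 21.5% of all probe sets tested, and 3 were called higher, against 25.9%. Among probe sets that averaged at least 8000, however, 14 of the 15 glycolytic ones were lower, against 84.8% of the 914 such probe sets on the chip. After quantile normalization only 3 of the 22 were lower (22% of all) and 9 were higher (21.9% of all). The median over the 8 genes was -0.23 as deposited and 0.22 after quantile normalization, against 0.05 and 0.01 over all probe sets tested. Among probe sets that averaged at least 8000, the median as deposited was -0.35 over 6 glycolytic genes, against -0.42 over all. On the quantile scale these medians were 0.18 and -0.01.

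The dimmer Hk1 probe set 1420901_a_at was 1.94-fold higher in Tg-18mo than in Tg-12mo, a difference of 0.95 (SE 0.05, adjusted p = 1.2e-05), and 0.93 after quantile normalization. The brighter one, 1437974_a_at, was higher by 0.17 (SE 0.04, adjusted p = 0.011) as deposited and by 0.35 after quantile normalization. Its deposited call was lost without replicate 2 of Tg-18mo (adjusted p = 0.066) or replicate 2 of Tg-12mo (adjusted p = 0.068). Pfkp 1430634_a_at was higher in Tg-18mo by 0.33 (SE 0.09, adjusted p = 0.017), a call lost after quantile normalization (adjusted p = 0.094), without replicate 2 of Tg-18mo (adjusted p = 0.11) and without replicate 1 of Tg-12mo (adjusted p = 0.078). Pfkp 1416069_at was nearly level, with a deposited difference of 0.04 and a 95% interval of -0.06 to 0.13.

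Between the ages, 4 of the 5 Aldoa probe sets were called lower in Tg-18mo as deposited, with differences of -0.64 to -0.26. The largest was that of 1416921_x_at, with 14522 and 15978 in Tg-18mo against 23035 and 24529 in Tg-12mo. On the quantile scale this probe set differed by -0.04, and the other 3 were called higher, at 0.13 to 0.32. The dim probe set 1447734_x_at showed no such shift, with a deposited difference of -0.02 (95% interval -0.14 to 0.09). The deposited calls for 1434799_x_at and 1433604_x_at were lost without the intensity trend (adjusted p = 0.07 and 0.055). Without replicate 1 of Tg-18mo both of these differed by -0.19.

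Aldoc gave a different picture, because its dimmer probe set fell on both scales. Probe set 1424714_at read 1616 and 1599 in Tg-18mo-ACEI, 1604 and 1474 in Tg-18mo and 2139 and 2120 in Tg-12mo. Both older groups lay below the younger one, and the difference of Tg-18mo from Tg-12mo was -0.47 (SE 0.06, adjusted p = 0.00032) as deposited and -0.52 (adjusted p = 0.00023) after quantile normalization. The bright Aldoc probe set 1451461_a_at, with 19706 and 21574.5 in Tg-12mo, differed by -0.51 as deposited and by 0.05 on the quantile scale. The 7 astrocyte markers summed to 42241 to 42271 in Tg-18mo-ACEI, 38495 to 39182 in Tg-18mo and 41464 to 42655 in Tg-12mo. As deposited, 3 of these markers were higher and 3 lower in Tg-18mo than in Tg-12mo, against 25.9% and 21.5% of all probe sets. The higher ones were Gfap (1.07), Aldh1l1 (0.82) and Sox9 (0.52), and the lower ones Gja1 (-0.65), Slc1a3 (-0.61) and Aqp4 (-0.28). On the quantile scale 4 were higher and 3 lower, against 21.9% and 22%. Whether astrocytes have a part in the Aldoc difference was not tested.

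The 3 Tpi1 probe sets were lower in Tg-18mo by differences of -0.53 to -0.34 as deposited. Probe set 1452927_x_at, for example, had 13584 and 14682 in Tg-18mo against 20319 and 20494 in Tg-12mo. After quantile normalization the 3 differences were 0.00 to 0.08 and none was called.

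Pgk1 1439435_x_at had the largest age difference of all 22 probe sets and was the only one past 2-fold in any comparison. It was 3.13-fold lower in Tg-18mo than in Tg-12mo, a difference of -1.65 (SE 0.15, adjusted p = 7.0e-05), and -1.46 after quantile normalization. The Tg-12mo chips of this probe set, at 8180 and 12312, also lay farther apart than those of any other glycolytic probe set tested. The other 2 Pgk1 probe sets were lower as deposited, at -0.17 and -0.20, and higher on the quantile scale, at 0.36 and 0.15, all called. Both deposited calls were lost without the intensity trend (adjusted p = 0.095 and 0.064). With a chip left out, 1438640_x_at was at -0.13 without replicate 1 of Tg-12mo, and 1417864_at at -0.16 without replicate 1 of Tg-18mo.

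Pkm read 10249 and 11646 in Tg-18mo against 10416.5 and 10832 in Tg-12mo, so that the ages overlapped, with a deposited difference of 0.04 (95% interval -0.12 to 0.20). On the quantile scale Pkm was called higher in Tg-18mo, at 0.33 (adjusted p = 0.0016). All 4 Ldhb probe sets were lower in Tg-18mo as deposited, at -0.52 to -0.28. Of these, 1434499_a_at was also lower after quantile normalization, at -0.19 (adjusted p = 0.0093), with 9586 and 9228 in Tg-18mo against 13548 and 13421.5 in Tg-12mo. Groups without overlap numbered 17 lower and 4 higher among the 22, against 33.6% and 40.9% of all probe sets tested.

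**Figure D3:**
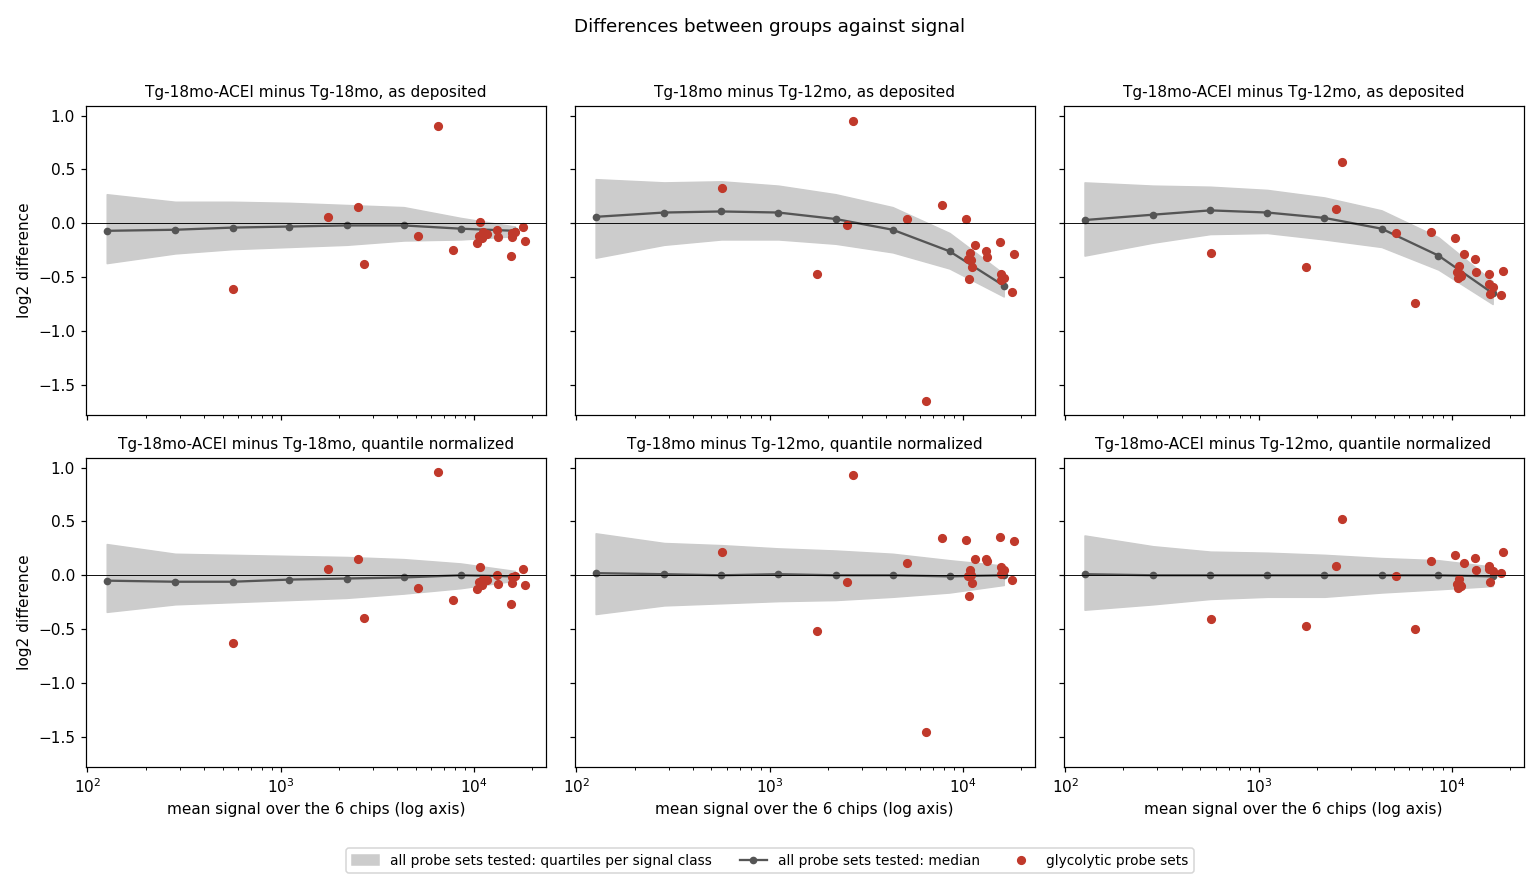
Log2 difference of each glycolytic probe set (red points) against its mean signal over the 6 chips (log axis), as deposited (top) and after quantile normalization (bottom), for the same comparisons. The line and band give the median and quartiles of all probe sets tested in classes of signal, and in the top middle panel the line drops to -0.58 in the brightest class (quartiles -0.68 and -0.47), where the 8 red points have a median of -0.39 and run from -0.64 to -0.17.

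The third comparison sets Tg-18mo-ACEI against Tg-12mo, the age at which treatment began. It shares its chips with the other comparisons, so its values stand beside them and are not independent of them. As deposited, 17 of the 22 were called lower, against 17.7% of all probe sets, and 1 higher, against 22.3%. In the bright class 14 of 15 were lower, against 89.2% of bright probe sets. After quantile normalization 3 were lower (18% of all) and 6 higher (18.1% of all). Groups without overlap numbered 20 lower and 2 higher, against 31.4% and 39.6% of all probe sets tested.

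Hk1 1420901_a_at was the probe set that was higher in captopril-treated mice than in 12 month-old mice as deposited, at 0.57 (SE 0.05, adjusted p = 0.00011), and at 0.52 on the quantile scale. Hk1 1437974_a_at differed by -0.08 as deposited (adjusted p = 0.18) and was called higher, at 0.13 (adjusted p = 0.032), on the quantile scale. The probe sets lower on both scales were Pfkp 1430634_a_at (-0.28 and -0.41), Aldoc 1424714_at (-0.41 and -0.47) and Pgk1 1439435_x_at (-0.74 and -0.50). The deposited call for Pfkp, at an adjusted p of 0.040, was lost under most other settings. Chip medians, no filter, only the groups compared and no intensity trend gave adjusted p-values of 0.054 to 0.066, and the methods' t-test 0.22. Without replicate 2 of Tg-12mo the Pfkp difference was -0.19. Tpi1 (-0.66 to -0.47) and Ldhb (-0.51 to -0.40) were lower as deposited and not called on the quantile scale.

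Gapdh, which oxidises glyceraldehyde-3-phosphate and yields NADH, is read by control probe sets at its 5′ end, middle and 3′ end. The 5′ probe set had 18510.3 and 16794 in Tg-18mo-ACEI, 17691 and 19751 in Tg-18mo and 28877 and 30375 in Tg-12mo. Captopril-treated and untreated 18 month-old mice overlapped on all 3 probe sets, with differences of -0.08 to -0.04. Tg-18mo was lower than Tg-12mo by differences of -0.71 to -0.66 as deposited, and differed by -0.06 to 0.04 on the quantile scale. The 3′/5′ ratio of Gapdh was 0.828 to 0.862 on the 6 chips. That of beta-actin was lower in captopril-treated mice, at 1.45 and 1.38 in Tg-18mo-ACEI, 1.98 and 1.88 in Tg-18mo and 1.83 and 1.77 in Tg-12mo, and the part of this sign of RNA quality in the differences with captopril was not tested. These controls were outside the fit and had no test.

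**Figure D4:**
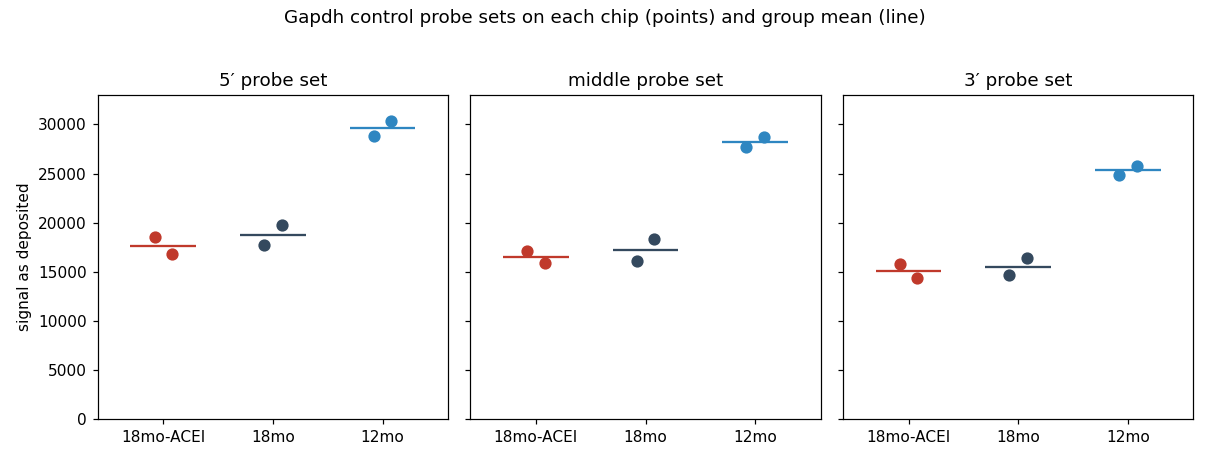
Signals of the 5′, middle and 3′ control probe sets for Gapdh on each chip (points, linear scale from 0) and group means (lines). In every panel the Tg-18mo-ACEI and Tg-18mo chips overlap, and both Tg-12mo chips lie above them (28877 and 30375 for the 5′ probe set).

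Across the 6 chips, the brightest probe sets of Aldoa, Aldoc, Tpi1 and Ldhb had similar profiles. Pearson's r of log2 signals was 0.990 between Tpi1 and Ldhb, 0.977 between Aldoc and Tpi1 and 0.969 between Aldoa and Aldoc. For Hk1, r was 0.863 with Pfkp and -0.019 with Tpi1. These are descriptions over 6 chips in 3 groups that share the scale difference between the ages. The mean log2 profile of the 8 genes lay at -0.14 and -0.22 in Tg-18mo-ACEI, -0.05 and 0.03 in Tg-18mo and 0.18 and 0.21 in Tg-12mo, as deviations from its mean. The probe sets of other genes most like this profile were Slc12a5 (r = 0.9983), Calr (0.9981), Epas1 (0.9971), Higd1a (0.9969) and Nsg2 (0.9966), and 580 of 21100 candidates, or 2.75%, had r above 0.95.

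Other enzymes of glycolysis and its neighbouring routes were counted in the same fit, each gene by its brightest probe set. Over all probe sets in the fit, 15.9% were called higher with captopril and 17.7% were called lower. Between Tg-18mo and Tg-12mo the shares were 25.9% higher and 21.5% lower as deposited (21.9% and 22% on the quantile scale), and between Tg-18mo-ACEI and Tg-12mo 22.3% and 17.7% (18.1% and 18%). The lists hold only 2 to 12 tested genes each, and no list was tested against the rest of the chip. Of 12 further glycolytic enzymes tested, 0 rose and 3 fell with captopril, against 15.9% and 17.7% of all probe sets. Pfkl and Pfkm, the liver and muscle types of phosphofructokinase, were lower like Pfkp 1430634_a_at, at -0.26 (adjusted p = 0.012) and -0.28 (adjusted p = 0.0034), and Hkdc1, a relative of the hexokinases, at -0.73 (adjusted p = 0.0086). Pfkl read 5355 and 5247 in Tg-18mo-ACEI, 6135 and 6579 in Tg-18mo and 3480 and 3855 in Tg-12mo, the same order as Hk1 1420901_a_at. Between Tg-18mo and Tg-12mo, 5 of the 12 rose and 1 fell as deposited, and 6 and 1 on the quantile scale, with Pfkl at 0.79 and the hexokinase Hk2 at 0.48. A further 1 of the 5 was Hk3, at 1.06, which met the signal limit of 100 only through the 18 month-old groups, with 123 and 92.2 in Tg-18mo-ACEI, 97.4 and 129 in Tg-18mo and 63.6 and 45.4 in Tg-12mo. A probe set that passed in this way had to be higher at 18 months, and no weight is put on its difference. Against Tg-12mo, captopril-treated mice had 3 higher (Hk3 among them, at 0.98) and 5 lower as deposited, with a median of -0.12, and 3 higher and 2 lower on the quantile scale, with a median of 0.08. Eno3, the muscle enolase (-0.67), and Pfkl (0.53) were called on both scales.

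Pfkfb3, which makes the activator of phosphofructokinase, rose in each comparison. Its signals were 677 and 600.4 in Tg-18mo-ACEI, 469 and 488 in Tg-18mo and 305 and 318 in Tg-12mo, with differences of 0.41 (adjusted p = 0.013) with captopril, 0.62 between the ages and 1.04 for captopril-treated against 12 month-old mice. Pfkfb4, of the same family, was lower with captopril (-0.39) and higher in Tg-18mo than in Tg-12mo as deposited (0.44), a call lost on the quantile scale (0.35, adjusted p = 0.056), and Hif1a was lower in Tg-18mo than in Tg-12mo (-0.22). Of the 5 regulators tested, 1 rose and 1 fell with captopril, against 15.9% and 17.7% of all probe sets.

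Of 6 transporters, 2 rose and 2 fell with captopril, against 15.9% and 17.7% of all probe sets. The monocarboxylate carriers Slc16a7 (0.87) and Slc16a1 (0.39) were higher, and the glucose carriers Slc2a8 (-0.36) and Slc2a1 (-0.21) lower. Slc2a1, the carrier of the blood-brain barrier and of astrocytes, read 3286 and 3221 in Tg-18mo-ACEI, 3706 and 3817 in Tg-18mo and 4920 and 4593 in Tg-12mo. It was lowest with captopril and highest in the young mice, a fall between the ages of 0.34 on the log2 scale (adjusted p = 0.00089) that held on the quantile scale (-0.28). Slc16a1 was lower in Tg-18mo than in Tg-12mo, at -0.34. Against Tg-12mo, captopril-treated mice had Slc2a1 (-0.55) and Slc2a8 (-0.30) lower on both scales, and Slc16a7 higher as deposited (0.52) but not called on the quantile scale (0.44, adjusted p = 0.068).

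Of 12 genes that admit pyruvate to mitochondria, 3 rose and 2 fell with captopril, against 15.9% and 17.7% of all probe sets. Pcx, pyruvate carboxylase, and Pdk2, a kinase that restrains pyruvate dehydrogenase, were lower (-0.41 and -0.39), and the kinase Pdk4 higher (0.36). Between Tg-18mo and Tg-12mo the counts were 3 and 2 as deposited and 4 and 3 on the quantile scale, with Pdk2 (0.69) and Pdk1 (0.34) higher and the pyruvate carrier Mpc1 lower (-0.44). Against Tg-12mo, captopril-treated mice had Pdk1 (0.52) and Pdk2 (0.29) higher and Mpc1 lower as deposited (-0.28), the last not called on the quantile scale (-0.11, adjusted p = 0.056).

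Of 12 citric acid cycle genes, 0 rose and 3 fell with captopril, Dlst (-0.30), Ogdh (-0.17) and Idh3g (-0.16), against 15.9% and 17.7% of all probe sets. Between Tg-18mo and Tg-12mo 2 rose and 9 fell as deposited, while 3 rose and 3 fell on the quantile scale. Mdh2, mitochondrial malate dehydrogenase, was at -0.71 as deposited and -0.10 on the quantile scale, whereas Ogdh (0.52) and Dlst (0.45) rose on both. Against Tg-12mo, captopril-treated mice had 1 higher and 10 lower as deposited, and 1 higher and 2 lower on the quantile scale. Idh3g was lower on both, at -0.46 and -0.28, while Mdh2 (-0.80) and Sdhb (-0.45) were not called on the quantile scale (-0.12 and -0.08).

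The NADH shuttles, which carry the electrons of glycolytic NADH into mitochondria, had 0 of 7 higher and 2 lower with captopril, Gpd1 (-0.37) and Slc25a11 (-0.16), against 15.9% and 17.7% of all probe sets. Between Tg-18mo and Tg-12mo 1 rose and 4 fell as deposited, with a median of -0.24, and 2 rose and 2 fell on the quantile scale, with a median of 0.06. Mdh1 (-0.61), Slc25a12 (-0.47) and Gpd2 (-0.44) fell most as deposited, and Mdh1 was not called on the quantile scale (-0.06). Mdh1 (-0.66), Slc25a12 (-0.49) and Got2 (-0.36) were lower in captopril-treated than in 12 month-old mice as deposited, and Mdh1 (-0.03) and Got2 (0.02) were not called on the quantile scale. Of 6 pentose phosphate genes, 1 rose and 3 fell with captopril, against 15.9% and 17.7% of all probe sets, with Rpe at 0.60, Pgls at -0.52 and Rpia at -0.50. Between the ages Rpia rose (0.67) and Pgls fell (-0.27), and captopril-treated against 12 month-old mice showed Pgls at -0.80, Rpe at 0.77 and Tkt at -0.40, the last not called on the quantile scale (-0.01).

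Among 6 glycogen genes, Ugp2 rose (0.31) and the phosphorylase Pygm fell (-0.50) with captopril, against 15.9% and 17.7% of all probe sets. In Tg-18mo against Tg-12mo 3 rose and 2 fell, with Gys1, glycogen synthase, at 0.85, Pygm at 0.60 and Gyg at -0.34, and Pygb was higher (0.18) in captopril-treated than in 12 month-old mice. Of 2 gluconeogenic genes tested, G6pc3 was lower with captopril (-0.50) and higher in Tg-18mo than in Tg-12mo (0.64). Pck2 was higher in Tg-18mo and in captopril-treated mice than in 12 month-old mice, at 0.41 in each.

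**Figure D5:**
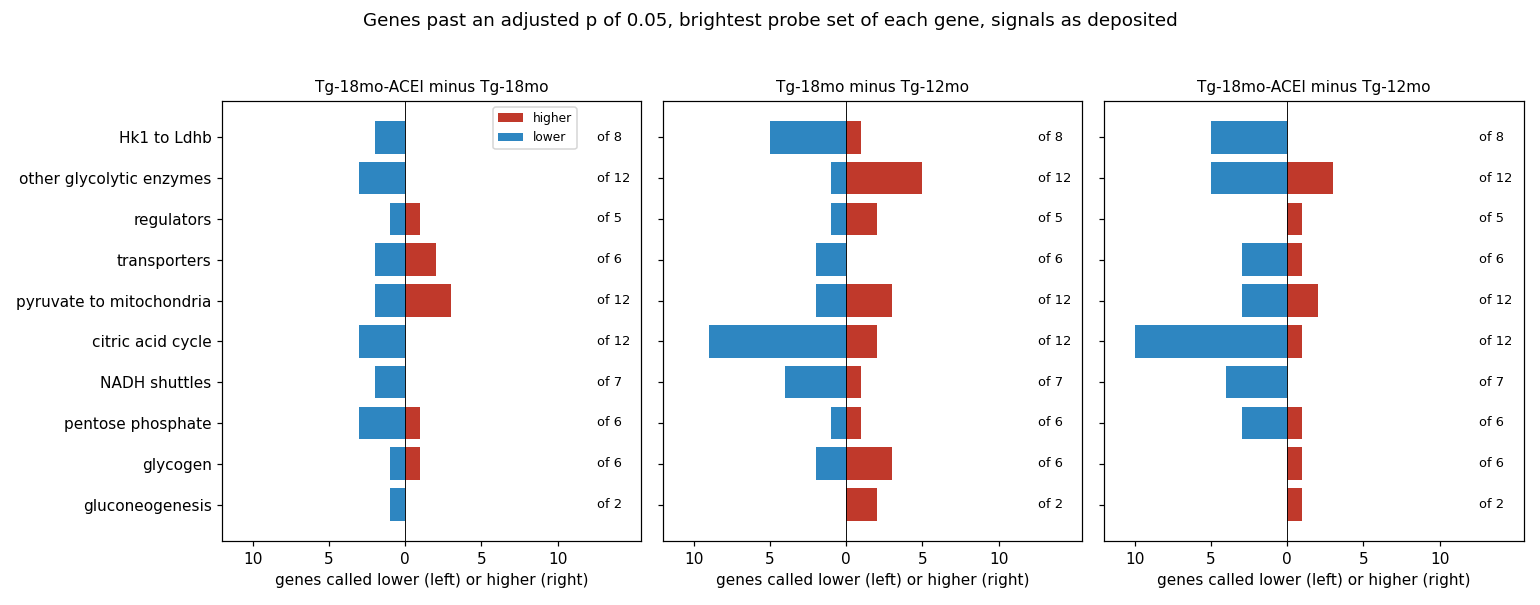
Number of genes called higher (red, right) and lower (blue, left) in each comparison, 1 probe set per gene, as deposited, for the 8 glycolytic genes measured and for 9 neighbouring lists, with the number of genes tested at the right of each row. The citric acid cycle has the longest bars, 9 and 10 of 12 lower in the comparisons with Tg-12mo, which were 3 and 2 on the quantile scale, against 21.5% and 17.7% of all probe sets as deposited. Of the 8 glycolytic genes 5 are lower in each of these as deposited. Among all probe sets that averaged at least 8000, 84.8% and 89.2% were. On the quantile scale 0 of the 8 genes were lower, and 5 and 3 were higher.

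The tissue itself was checked by markers. All 7 markers of excitatory hippocampal neurons had mean signals over 100 in every group, and their sum ran between 27087 and 29632 on the 6 chips. Single markers differed more than the sum. With captopril 3 were higher, Prox1 (1.57), Zbtb20 (0.53) and Neurod6 (0.45), and 1 lower, Slc17a7 (-0.22), against 15.9% and 17.7% of all probe sets. Between Tg-18mo and Tg-12mo 2 were higher, with Slc17a7 at 1.30, and 1 lower, Neurod6 (-0.34), against 25.9% and 21.5%. Interneuron markers summed to 23953 to 24440.2 in Tg-18mo-ACEI, 28248 to 28839 in Tg-18mo and 28808 to 29525 in Tg-12mo. With captopril 4 of the 5 were lower, against 17.7% of all probe sets, among them Npy (-0.61) and Gad2 (-0.37). Between Tg-18mo and Tg-12mo 2 were higher and 1 lower as deposited, against 25.9% and 21.5% of all probe sets. Npy (0.50) and Gad2 (0.54) were the higher ones, so that they were highest in Tg-18mo like Hk1. Gad1, the brightest of the list, went the other way (-0.28), a call lost on the quantile scale (0.11), and Sst and Pvalb were not called.

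Choroid plexus markers, from a tissue next to the hippocampus, differed most with captopril. Of these 7, 6 were lower, against 17.7% of all probe sets, and the median was -2.57. Among the 6, Slc4a5 met the signal limit only through the untreated groups, with 27.1 and 78.5 in Tg-18mo-ACEI. Passing in this way, it had to be lower with captopril, and no weight is put on its difference. The other markers called lower ran from -2.74 (Kcnj13) to -1.56 (Kl). The marker not called lower was Ttr, the brightest, with means of 19364 in Tg-18mo-ACEI, 18677 in Tg-18mo and 36377 in Tg-12mo. On the quantile scale Ttr was called higher with captopril (0.12, limma adjusted p = 0.04). The mean of each group lay near the highest signals of its chips, 21934 to 25102 at 18 months and 39494 and 40190 at 12 months. Whether this limits the Ttr differences was not tested. The other 6 summed to 1629 to 1646 in Tg-18mo-ACEI, 8025 to 8186 in Tg-18mo and 6982 to 7267 in Tg-12mo. Between the ages 3 of the 7 were higher and 1 lower as deposited, with a median of 0.10, and 1 higher and 1 lower on the quantile scale, with a median of 0.02. Over all probe sets the shares were 25.9% higher and 21.5% lower as deposited, and 21.9% and 22% on the quantile scale. Ependymal markers summed to 1037 to 1100 in Tg-18mo-ACEI, 1979 to 2148 in Tg-18mo and 1758 to 1766 in Tg-12mo. All 4 were lower with captopril, against 17.7% of all probe sets.

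Oligodendrocyte markers were lower with captopril in 3 of 4, against 17.7% of all probe sets, with a median of -0.31. Between the ages 2 were higher and 2 lower as deposited, with a median of -0.02, against 25.9% and 21.5% of all probe sets. On the quantile scale 2 were higher and 0 lower, with a median of 0.16, against 21.9% and 22%. Their sum was 33855 to 34765 in Tg-18mo-ACEI, 39255 to 40412 in Tg-18mo and 53889 to 54098 in Tg-12mo. Most of this was Mbp, which averaged 19946 in Tg-18mo-ACEI, 21261 in Tg-18mo and 34719 in Tg-12mo and differed by 0.00 between the ages on the quantile scale. Fewer cells of a type and less RNA per cell cannot be told apart in such pooled tissue, and the part of these cell types in the glycolytic differences was not tested. Both red cell markers with a probe set had mean signals under 100 in every group.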

How the data were processed

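Hippocampal RNA of 3 groups of Tg2576 mice was hybridised to 6 chips, 2 a group, each with RNA pooled from 4 mice. The authors processed the scans with GCOS and deposited signal intensities, 1 linear value per probe set and chip, scaled to a target value of 600. Checked on the deposited intensities, each chip had a mean of 600 once the 2 percent of values at either end were trimmed. Detection calls and the RMA values that the methods mention are not used here. Intensity, and not a count of reads, limits the precision, along with the number of chips.

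Gene symbols came from the platform annotation, in which 34945 non-control probe sets had 1 symbol, 932 several and 9160 none. Only probe sets with 1 symbol were named. Log2 signals of the 23262 non-control probe sets (of 45037) that averaged at least 100 in some group were fitted with limma 3.58.1 in R 4.3.3 (lmFit, and eBayes with an intensity trend), with 3 group means, 3 residual and 5.37 prior degrees of freedom. Benjamini-Hochberg adjustment covered all of these, with calls at 0.05. The script was tested on simulated data with planted changes. An exact permutation test of 2 chips against 2 cannot go below p = 0.333. Replicate numbers did not pair the chips (correlations of deviations between -0.052 and 0.034).

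The rule named every probe set of the 10 genes, the 3 genes with the largest called difference in each neighbouring list, and the 5 probe sets most alike over the chips. The medians planned over 10 genes cover 8, since Gpi1 and Gapdh had no probe set of their own in the fit. The members, lists and rules were chosen with earlier results of these data known. Alternatives were quantile normalization, division by the chip median, 32 added before log2, no filter, a mean of at least 200, only the groups compared, the replicate block, no intensity trend, the methods' t-test, the mean of a gene's probe sets, and each chip left out. Promoters came from RefSeq (GRCm38.p6), which listed a start for 10 of the 10 genes. Python 3.11.15, pandas 2.3.3 and matplotlib 3.10.9 read sequences and drew figures.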

Additional observations from a re-analysis of the deposited data

How the results depend on the processing

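The captopril calls for Hk1 (both probe sets), Pfkp 1430634_a_at and Pgk1 (1438640_x_at and 1439435_x_at) kept their direction and stayed called under every alternative run except the methods' t-test. With captopril, the count higher was 2 instead of 1 after quantile normalization, division by the chip median, adding 32 or a mean of at least 200, and the methods' t-test called 0 of both directions, after adjustment or at its own threshold with a 2-fold difference. At an unadjusted p under 0.05 that test passed 7, 13 and 17 of the 22 in the 3 comparisons. The median of -0.14 ran between -0.22 and -0.08 as single chips were left out, at -0.22 without replicate 1 of Tg-18mo-ACEI or of Tg-18mo, and at -0.08 without replicate 2 of Tg-18mo.

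For Tg-18mo against Tg-12mo, quantile normalization gave 9 higher and 3 lower instead of 3 and 16, and a median of 0.22 instead of -0.23. The t-test gave 0 higher and 1 lower after adjustment, and 0 and 0 at its own threshold. The count higher was 1 to 3 with a chip left out, lowest without replicate 2 of Tg-18mo, and the count lower 12 to 16. The mean of a gene's probe sets gave a median of -0.35. For Tg-18mo-ACEI against Tg-12mo, quantile normalization gave 6 higher and 3 lower instead of 1 and 17, with a median of 0.06 instead of -0.46, and the t-test 0 of both. By construction, quantile normalization removes the shift of bright probe sets between the ages.

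Differences that changed sign with captopril were all uncalled. Aldoa 1416921_x_at was at 0.06 after quantile normalization, 0.00 after chip medians and 0.04 without replicate 2 of Tg-18mo-ACEI or of Tg-18mo (range with a chip left out, -0.09 to 0.04). Aldoa 1433604_x_at was at 0.00, 0.00 and 0.01 under quantile normalization and without those chips (-0.13 to 0.01). Aldoc 1451461_a_at was at 0.04 without replicate 2 of Tg-18mo-ACEI (-0.20 to 0.04), and Ldhb 1434499_a_at at -0.03 without replicate 1 of Tg-18mo-ACEI and -0.02 without replicate 2 of Tg-18mo. Between the ages, quantile normalization turned Aldoa to 0.32, 0.13 and 0.15, Aldoc 1451461_a_at to 0.05, Tpi1 to 0.01 and 0.08, Pgk1 to 0.36 and 0.15 and Ldhb 1416183_a_at to 0.05, and Pkm was at -0.05 without replicate 2 of Tg-18mo. For Tg-18mo-ACEI against Tg-12mo it turned Hk1 1437974_a_at to 0.13, Aldoa to 0.22, 0.02, 0.05 and 0.16, Aldoc 1451461_a_at to 0.04, Tpi1 1415918_a_at to 0.06, Pgk1 to 0.09 and 0.11, Pkm to 0.19 and Got2 to 0.02. With the replicate number as a block, the counts were 1 higher and 4 lower, 3 and 16, and 1 and 17, the same as without it, and none of the 66 glycolytic calls changed. Of the 67 calls that the rule named in the neighbouring lists, 4 were lost with this block and 11 without the intensity trend. Quantile normalization lost 9 and turned 1 round, and the methods' t-test after adjustment lost 64.

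With 2 pooled chips a group, the spread between mice was not measured.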

Other observations

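Probe sets that carry Gapdh or Hk1 together with further symbols cannot be assigned to 1 gene and are given by their IDs, all 4 of them. Probe set 1457612_at, whose symbols are Gapdh and a Gapdh pseudogene, read 198 and 230 in Tg-18mo-ACEI, 605 and 602 in Tg-18mo and 262 and 223 in Tg-12mo. Untreated 18 month-old mice stood above both other groups, with a log2 difference of -1.50 with captopril (limma, adjusted p = 9.6e-05) and of 1.32 for Tg-18mo against Tg-12mo (adjusted p = 1.0e-04). Probe set 1447999_x_at, with the same symbols, ran the other way, at 899 and 1045 in Tg-18mo-ACEI, 586 and 868 in Tg-18mo and 791 and 835 in Tg-12mo. Its differences of 0.44 with captopril (adjusted p = 0.067) and -0.19 between the ages (adjusted p = 0.37) did not pass the test. The bright probe set 1418625_s_at, with 5 symbols that include Gapdh, differed by -0.04 with captopril and by -0.81 for Tg-18mo against Tg-12mo, the last being -0.19 after quantile normalization. It thus stood near the control probe sets for Gapdh in both comparisons, which 1457612_at did not. Probe set 1436822_x_at, whose 6 symbols include Hk1 beside Rpl17, read 12589 and 11747 in Tg-18mo-ACEI, 11103 and 11594 in Tg-18mo and 22060.0 and 21805 in Tg-12mo. Its difference with captopril was 0.10 (adjusted p = 0.16) as deposited and 0.19 (adjusted p = 0.0030) after quantile normalization, and between the ages it was lower on both scales, at -0.95 and -0.43, unlike both probe sets that carry Hk1 alone.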
